A study of Mus musculus with 6 samples.

Results

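Malat1 and Neat1 are long non-coding RNAs that stay in the nucleus, and Sfpq, Nono and Pspc1 encode proteins that assemble on Neat1. Together with Gm20417 and Gm37376, genes annotated inside the Malat1 gene, these 7 genes were followed through 6 RNA immune-precipitation sequencing (RIP-seq) libraries of mouse left ventricle. They were selected by gene name from 46072 genes of the separate tables, in which all 7 have an entry. Of these, 6 have an entry under a name that occurs once in the series table of 44382 entries and were analysed there. Names occurring more than once were left out before members were looked up. No entry named Neat1 was among those kept, so Neat1 was followed in the separate tables.

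RIP-seq recovers RNAs bound to the protein an antibody captures, here EZH2, the methyltransferase subunit of Polycomb repressive complex 2. Male mice aged 10 weeks formed a Sham group and the groups AngII 4 h and AngII 24 h, with 2 mice apiece. Angiotensin II (AngII), a hormone that raises blood pressure, was infused from a subcutaneous osmotic minipump at 1 mg/kg/min for 4 or 24 h, and Sham mice were infused with saline, although their labels read untreated. Lysates of about 100 mg of left ventricle were incubated with 500 ng of anti-EZH2 or of normal IgG, and 2 RIP products were pooled into each library. The labelled strain is C57BL/6 for the 3 IgG libraries and for Sham anti-EZH2, C57BL/7 for AngII 4 h anti-EZH2 and C57BL/8 for AngII 24 h anti-EZH2. The mice of a group supplied both antibodies, so the strain labels within each AngII group conflict. The latter names may be numbering slips, but which label is right could not be settled from the labels alone. Each group and antibody had 1 library, so ratios and levels below carry no replicate check and no test, unless limma is named.

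All values are FPKM, mapped fragments scaled to transcript length and library size, so that genes of different length can be compared. They came in 2 forms. The series table was made for all libraries together, and the separate tables were made library by library and carry an interval for each FPKM. Depth was estimated from the separate tables, where low values climb in steps worth 1 fragment. For the IgG libraries of Sham and then both AngII times this gave about 4310000, 5240000 and 3800000 fragments. For anti-EZH2 it gave about 5670000, 7980000 and 4770000. Between 65.8% and 70.2% of the low values lay within 0.1 of a whole fragment, compared with 20% by chance. In the text, values in groups of 3 follow the order Sham, AngII 4 h and AngII 24 h.

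Malat1 is one of the most abundant nuclear RNAs of many tissues and gathers in nuclear speckles, which hold splicing factors. Its transcript ends without a usual poly(A) tail. RNase P cuts off a tRNA-like piece and leaves an end protected by a triple helix. Neat1 is transcribed next to it, and its long form is the scaffold of paraspeckles, nuclear bodies that need SFPQ and NONO and also hold PSPC1. Both RNAs have been studied for links to Polycomb complexes and to stress of the heart.

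Malat1 is a lincRNA of 6983 nt without introns in its longest form, on the minus strand of chromosome 19 (5795690 to 5802672, GRCm38). In the series table its FPKM was 175, 139 and 242 with IgG and 484, 524 and 741 with anti-EZH2. All anti-EZH2 values lay above all IgG values. The anti-EZH2/IgG ratio of Malat1 was 2.77, 3.78 and 3.07, so it was past 2 in each group and differed between groups by at most 1.37-fold. The genes tested were the 4777 whose FPKM exceeded 0 in every library and averaged at least 1. Such a ratio was seen for 13.3% of them in Sham, for 12.2% at AngII 4 h, for 16.1% at AngII 24 h and for 1.40% in every group. The Malat1 ratio lay at percentile 92.6, 96.8 and 92.3 of these genes, whose median ratio was 0.998, 1.10 and 1.05. From the separate tables, Malat1 was at 330, 377 and 376 FPKM with IgG and at 501, 707 and 738 with anti-EZH2. The order of the antibodies was the same, but the ratios of 1.52, 1.88 and 1.96 stayed below 2. The median ratio of the 7678 genes tested there was lower too, at 0.819, 0.928 and 0.650, and the Malat1 ratio stood at percentile 81.3, 88.3 and 92.3. A ratio above 2 was found there for 11.7%, 10.3% and 7.28% of genes, and in all groups for 1.07%.

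The antibodies were also compared over the 3 groups with limma on log2(FPKM + 1) in the series table, with the group as a block. The log2 fold change of Malat1 was 1.66 with an SE of 0.24 (limma adjusted p = 0.88), higher with anti-EZH2 in 3 of 3 groups. Gm20417 reached 1.96, higher in 3 of 3 groups, with an SE of 0.23 (limma adjusted p = 0.88) and Gm37376 reached 2.57 with an SE of 0.35 (limma adjusted p = 0.88). The authors had listed Malat1, Gm20417 and Gm37376 as enriched over 2-fold in all groups of these data. Their ranks by p, 11, 4 and 8 among 5036 genes, are thus no separate support, and none of these genes passed adjustment over all genes. By limma no gene did (0%), with 0 higher and 0 lower, while 3.46% were higher and 1.49% lower at an unadjusted p under 0.05. With 3 pairs the fit had 2 residual degrees of freedom, so a failure to pass does not show that the antibodies gave equal amounts.

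**Figure D1:**
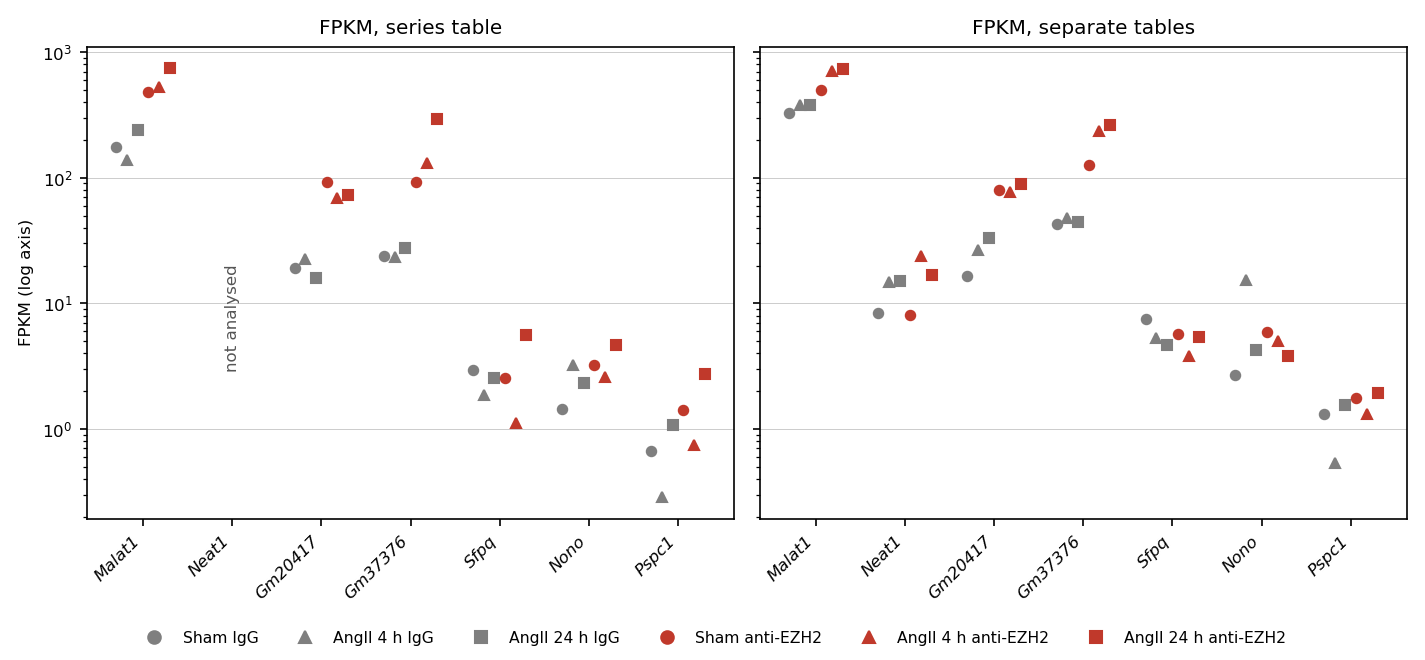
FPKM of the 7 genes on a log axis in the 6 libraries, from the series table (left, Neat1 not analysed) and the separate tables (right), with symbols for the group and colours for the antibody. Malat1, Gm20417 and Gm37376 lay higher in each anti-EZH2 library than in every IgG library, and the mRNAs of Sfpq, Nono and Pspc1 lay far lower than Malat1 in all libraries.

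Among lincRNAs Malat1 ranked 3 of 2726 in each IgG library of the series table, and 2, 1 and 1 with anti-EZH2. The separate tables ranked it 2 in each IgG library and 2, 1 and 1 with anti-EZH2, of 2765. It was thus at or near the top of this class with either antibody. Its levels after AngII were read against those of all genes tested. In the series table Malat1 was 0.792 and 1.38 times its Sham level at AngII 4 h and AngII 24 h with IgG, and 1.08 and 1.53 times with anti-EZH2. All genes tested had medians of 0.913 and 1.59 with IgG and of 1.02 and 1.63 with anti-EZH2, and Malat1 lay between percentile 38.5 and 55.0. Dividing by the median ratio of genes above 1 FPKM in all libraries gave 0.898 and 0.998 at AngII 24 h with IgG and anti-EZH2, so the direction at 24 h depends on the scaling. The separate tables, normalized separately, put Malat1 at 1.14 and 1.14 times Sham with IgG and at 1.41 and 1.47 times with anti-EZH2, where the medians were 1.17, 1.19, 1.31 and 0.946. In bulk tissue fewer cells of a type and less RNA per cell cannot be told apart.

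Gm37376 and Gm20417 are placed inside Malat1. Gm37376, a gene model of unsettled status (type TEC), covers 453 nt of the plus strand (chromosome 19, 5801941 to 5802393), opposite nt 280 to 732 of Malat1. Gm20417 covers 988 nt (5797562 to 5798549, from the separate tables), at nt 4124 to 5111 of Malat1, and its strand is not given in the tables used here, although the authors describe it as antisense to Malat1. The kit keeps the strand of the RNA, but the strand setting used for counting is not stated. Without it, fragments of Malat1 and of a gene on its other strand cannot be told apart.

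**Figure D2:**
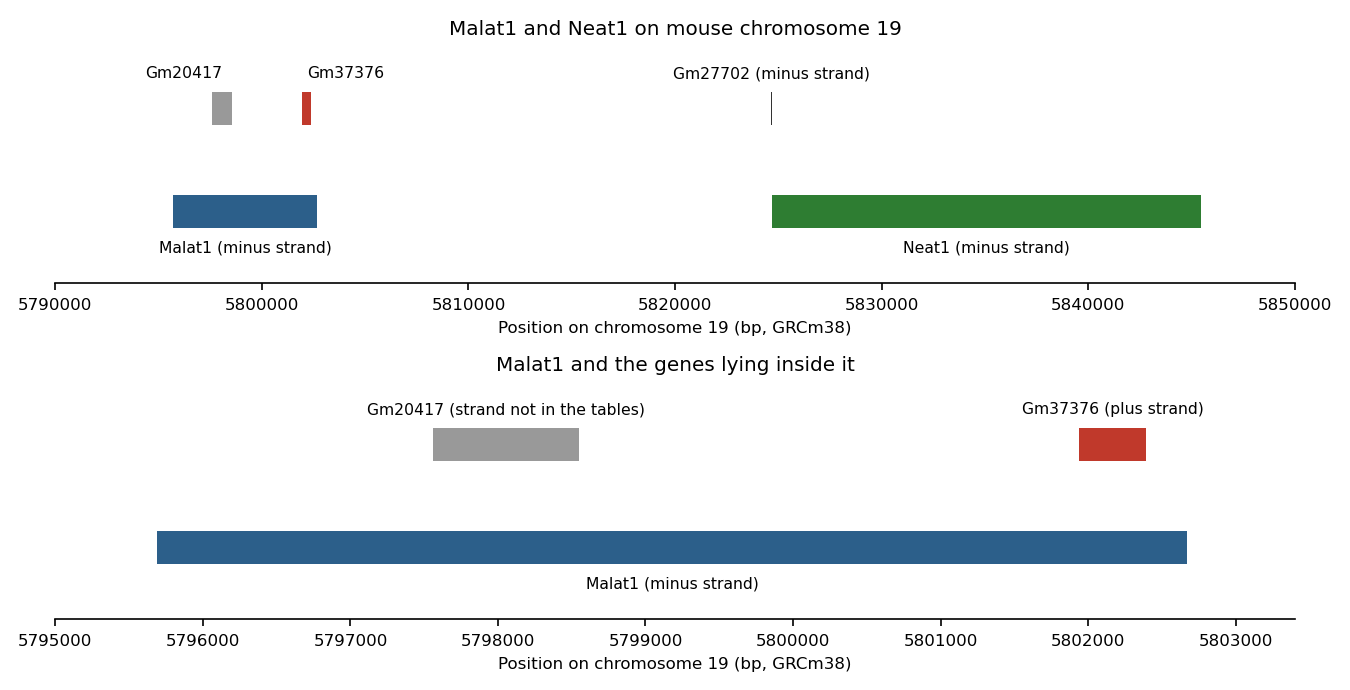
Maps of chromosome 19 drawn to scale (x axis in bp of GRCm38), with Malat1 and Neat1 above, and Malat1 with the genes inside it below. Gm37376 and Gm20417 lie within Malat1, and Gm27702 adjoins the 3′ end of Neat1.

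In the series table Gm37376 had an FPKM of 24.0, 23.5 and 27.6 with IgG and of 92.1, 132 and 293 with anti-EZH2. As listed, the IgG values were nearly level, while the anti-EZH2 values climbed from Sham to AngII 24 h, and the ranges did not overlap. The level at AngII 24 h against Sham was 1.15 with IgG and 3.18 with anti-EZH2. It became 0.748 and 2.08 after division by the median ratio, and 0.651 and 2.53 without mitochondrially encoded genes. The direction with IgG thus depends on the scaling. Its ratio was 3.84, 5.61 and 10.6, the highest of the members at AngII 4 h and AngII 24 h in the series table, at percentile 95.7, 98.4 and 98.9 of all genes tested. The separate tables gave 42.6, 47.5 and 44.5 with IgG and 126, 237 and 263 with anti-EZH2, and ratios of 2.95, 4.99 and 5.92. The order of the groups was therefore the same in both forms, at a smaller size at AngII 24 h. About 47, 63 and 43 fragments lay behind the IgG values and about 180, 480 and 320 behind the anti-EZH2 values, as an estimate from the FPKM.

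Gm20417 had an FPKM of 19.3, 22.6 and 16.0 with IgG and of 92.5, 68.5 and 72.7 with anti-EZH2 in the series table. Here Sham was the highest anti-EZH2 library, unlike for Gm37376, and the antibodies again did not overlap. The ratio of Gm20417 was 4.81, 3.04 and 4.55, while the separate tables gave 4.79, 2.89 and 2.71. Its FPKM there was 16.6, 26.5 and 32.9 with IgG and 79.5, 76.5 and 89.2 with anti-EZH2, from about 56, 110 and 99 fragments with IgG and about 360, 480 and 340 with anti-EZH2. The lower ratio after AngII in the separate tables went with higher IgG values, while the anti-EZH2 values stayed within a narrow range.

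The share of Malat1 was calculated because the 3 genes occupy the same DNA. Gm37376 reached 13.7%, 16.9% and 11.4% of the Malat1 FPKM with IgG and 19%, 25.1% and 39.6% with anti-EZH2 in the series table. From the separate tables the same shares came to 12.9%, 12.6% and 11.8%, and 25.1%, 33.5% and 35.7%. The share was thus higher with anti-EZH2 than with IgG in each group and in both forms of table. Gm20417 reached 11.0%, 16.3% and 6.62% with IgG and 19.1%, 13.1% and 9.82% with anti-EZH2 in the series table. At AngII 4 h its share was lower with anti-EZH2, which differs from the separate tables, where it was 5.03%, 7.04% and 8.77% with IgG and 15.9%, 10.8% and 12.1% with anti-EZH2. Only 2 other single-exon genes of at least 300 nt lie in an exon of an opposite-strand gene with a mean of at least 10 FPKM, a comparison chosen after seeing the data. Gm42733 inside Ociad1 had a median share of 3.75% over the libraries and Gm7418 inside Ciapin1 one of 0%, compared with 19% for Gm37376.

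The FPKM of these genes did not always lie within its own interval. For Gm37376 it lay above the interval in 6 of 6 libraries, for Gm20417 in 5 and for Malat1 in the 3 IgG libraries. Values outside their interval, on either side, were found for between 5.25% and 8.50% of genes above 1 FPKM in a library, and in no library for Neat1, Sfpq, Nono or Pspc1. The middle of the interval, an alternative chosen after seeing the data, gave Malat1 ratios of 1.77, 2.25 and 2.35, Gm20417 ratios of 3.83, 2.58 and 2.51, and Gm37376 ratios of 2.72, 4.71 and 5.41. For each of the 3 genes the intervals of anti-EZH2 and IgG were apart in every group. These intervals describe the estimate within a library and not the spread between mice.

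Reads from sequence that other genes share can match many places, so stretches of 30 nt were looked up, on either strand, in the annotated transcripts of genes other than the members and the small RNA genes inside Malat1 and Neat1. All stretches of Gm37376 and Gm20417 lie in Malat1 by position, and Malat1 was left out of this search. Of the 424 stretches of Gm37376, 115 (27.1%) were found in genes elsewhere, and a single one in up to 853 genes. How reads with several matches were counted is not stated, and their part in the Gm37376 values was not tested. Of the 959 stretches of Gm20417, 0 were found in genes elsewhere. Its first 60 bases (chr19:5797562-5797621, GRCm38) are given on both strands, 5′ to 3′, as positions that both genes cover. They were read from the Malat1 transcript of GENCODE M21, and the plus strand is the reverse complement of it. The sequence therefore does not show the strand of Gm20417. All bases are printed in lower case, and none of their stretches of 30 nt was found in genes elsewhere.
Gm20417 span, plus strand: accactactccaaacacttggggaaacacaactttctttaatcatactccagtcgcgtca
Malat1, minus strand: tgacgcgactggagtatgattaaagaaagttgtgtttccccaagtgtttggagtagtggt
Gm20417 and Gm37376 were both past a ratio of 2 in all groups and in both forms of table. Of the 7 members, these were the only ones past it in all groups of the separate tables. With Malat1 and Pspc1, 4 of 6 members were past it in the series table, beside 1.40% of all genes. For Malat1, Gm20417 and Gm37376 this repeats what the authors listed from the same values, so the count is no separate support. With FPKM + 1 the Pspc1 ratio was 1.44, 1.36 and 1.80, below 2 in each group. Because Gm20417 and Gm37376 share their DNA with Malat1, these are not separate observations.

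**Figure D3:**
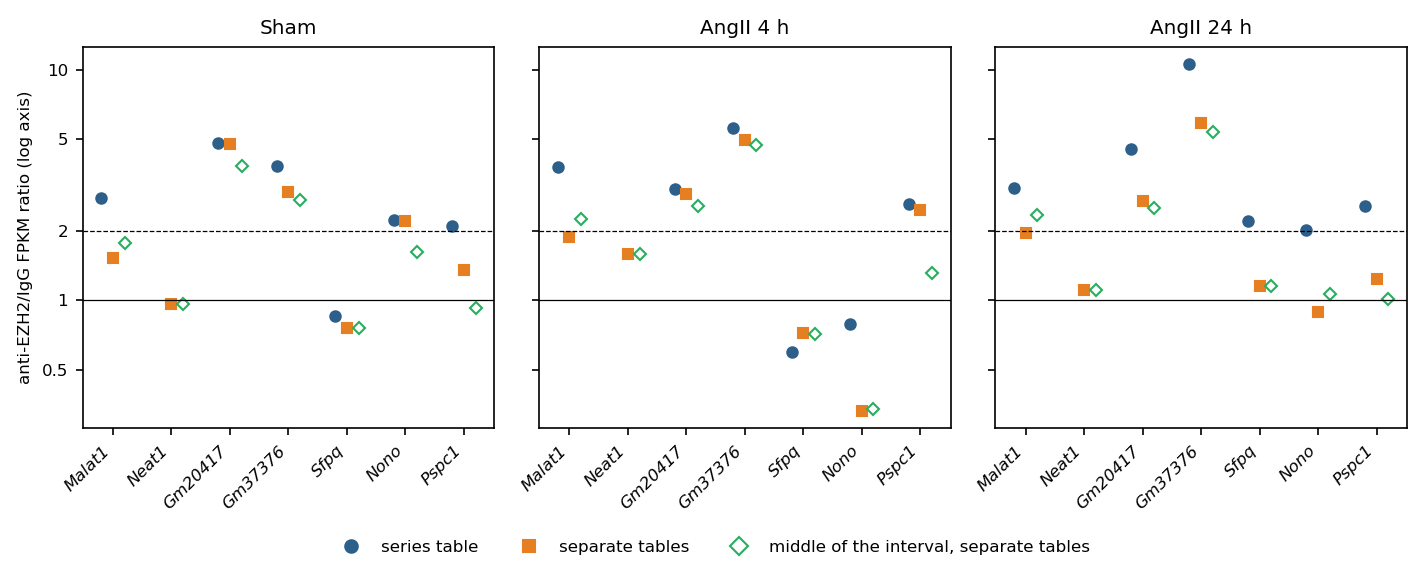
Anti-EZH2/IgG ratio of FPKM (log axis) of each gene in the 3 groups, from the series table, the separate tables and the middle of the FPKM intervals. The solid line marks a ratio of 1 and the dashed line a ratio of 2. Gm20417 and Gm37376 lie above 2 in each panel by all 3 values, and Neat1 lies between 0.959 and 1.59.

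Neat1 lies 22035 bp from Malat1 on the same strand (chromosome 19, 5824708 to 5845478). Its annotated forms include a long transcript of 20771 nt and a short one of 3004 nt, and FPKM per gene does not separate them. In the separate tables Neat1 had an FPKM of 8.37, 14.9 and 15.1 with IgG and of 8.03, 23.7 and 16.8 with anti-EZH2. Both Sham libraries were low, and all 4 AngII libraries were higher, with the highest value in AngII 4 h anti-EZH2. The anti-EZH2/IgG ratio of Neat1 was 0.959, 1.59 and 1.11, and after division by the median ratio it was 1.17, 1.72 and 1.70, so the Sham value turned and the AngII 24 h value moved furthest. These ratios stood at percentile 60.5, 83.5 and 79.5 of the genes tested. It was below 2 in every group, and its intervals overlapped between antibodies in Sham and at AngII 24 h but not at AngII 4 h, where they were 12.7 to 17.0 with IgG and 21.2 to 26.1 with anti-EZH2.

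Against Sham the Neat1 level was 1.77-fold at AngII 4 h and 1.81-fold at AngII 24 h with IgG, and 2.95-fold and 2.09-fold with anti-EZH2. The medians over all genes were 1.17, 1.19, 1.31 and 0.946, and Neat1 lay at percentile 77.7, 75.8, 90.7 and 87.1. The intervals of the AngII libraries did not overlap those of Sham with the same antibody, which were 6.62 to 10.1 with IgG and 6.54 to 9.52 with anti-EZH2. Levels above Sham in both antibodies at both times were found for 21.6% of genes, among them Neat1, Malat1 and Gm37376. Of these members, Neat1 was also above the median of all genes in all 4 comparisons, which held for 14.1% of genes. The tables were normalized separately, both times share the Sham libraries, and both antibodies share the mice. Malat1 was 39.4, 25.3 and 24.9 times as high as Neat1 per length with IgG, and 62.4, 29.9 and 44.0 times with anti-EZH2. Neat1 thus came closer to Malat1 after AngII with either antibody. Among lincRNAs it ranked 11, 9 and 9 with IgG, and 12, 5 and 4 with anti-EZH2.

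Markers of other cells moved between the same groups. Of the atrial markers Myl7, Myl4 and Sln, 2 of 3 were detected. They summed to 23.8 FPKM with IgG and 18.8 with anti-EZH2 in the Sham libraries of the separate tables. In the AngII libraries they summed to 1.05 and 0.552 with IgG and to 0.878 and 0 with anti-EZH2. Myl7 was the most abundant of them, at 14.3 and 12.2 in the Sham libraries, and Sln was at 0 in all libraries. Whether the atrial share of the samples has a part in the Neat1 levels was not tested. Of the ventricular cardiomyocyte markers 7 of 7 passed the filter in both forms of table, with Myl2 at 1032, 1006 and 3042 FPKM with IgG and at 892, 1011 and 3257 with anti-EZH2 in the series table. The separate tables gave Myl2 at 3045, 3934 and 3294 with IgG and at 2122, 3181 and 2114 with anti-EZH2. There the 7 markers summed to 6850, 9330 and 8300 with IgG and to 5270, 8350 and 5520 with anti-EZH2. The 4 macrophage markers summed to 15.2, 10.6 and 11.0 with IgG and to 12.6, 6.59 and 6.11 with anti-EZH2 in the separate tables, with C1qa the most abundant. The 4 endothelial markers summed to 23.8, 18.1 and 19.1 and to 19.2, 22.5 and 9.65, led by Pecam1. The 4 fibroblast markers summed to 50.3, 40.8 and 41.4 and to 36.6, 39.1 and 28.6, led by Dcn, and the 3 smooth muscle and pericyte markers to 17.4, 22.1 and 21.4 and to 15.1, 16.5 and 11.9, led by Rgs5. The 5 erythroid markers summed to 920, 625 and 1450 and to 724, 587 and 810, led by Hbb-bs, and the 4 skeletal muscle markers to 165, 251 and 210 and to 124, 239 and 136, led by Ckm, which heart muscle expresses too. Adipocyte markers did not exceed a sum of 0.754 and neuronal markers a sum of 3.05. By the series table the macrophage sums were 5.83, 3.5 and 8.88 with IgG and 6.82, 2.58 and 7.92 with anti-EZH2. They were thus above Sham at AngII 24 h, unlike in the separate tables. The median gene tested in the series table was then at 1.59 times Sham with IgG and 1.63 times with anti-EZH2, and these sums rose by less. Smooth muscle and pericyte sums were 14.3, 12.9 and 7.27, and 13.2, 11.1 and 6.43 there, below Sham in all AngII libraries. With IgG the endothelial sum was 10.8 in Sham and 13 at AngII 24 h, also a smaller rise than the median, and with anti-EZH2 it was 11.1 and 10. The erythroid and skeletal muscle sums moved in the same direction from Sham in both forms of table. Mitochondrially encoded genes held 53.1%, 58.5% and 17.1% of the FPKM with IgG and 48.4%, 56.9% and 35.0% with anti-EZH2 in the series table. By the separate tables they held 12.4%, 13.7% and 13.9%, and 12.0%, 6.72% and 31.3%.

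Gm27702 is a small RNA gene of 56 nt (5824652 to 5824707) that directly adjoins the 3′ end of Neat1 on the same strand. In the series table it had an FPKM of 4.81, 6.60 and 10.7 with IgG and of 5.83, 13.3 and 20.1 with anti-EZH2, with ratios of 1.21, 2.02 and 1.88. It was listed at 0 in all separate tables. Like Neat1, Gm27702 was lower in both Sham libraries than in the AngII libraries. Whether it holds reads of Neat1 was not tested. Inside the 5′ part of Neat1 lie Gm27533, Gm27505 and Gm28006, small RNA genes of 152, 110 and 122 nt. In the separate tables Gm27533 had an FPKM of 0.00853, 0 and 62.1 with IgG and of 42.2, 67.1 and 64.2 with anti-EZH2. Gm27505 had 0, 0 and 108 with IgG and 0, 0 and 57.5 with anti-EZH2. For Gm28006 it was 18.5, 119 and 0 with IgG and 0, 138 and 78.8 with anti-EZH2. Each of these genes was at 0 in at least 1 library. Gm27694, of 86 nt inside Malat1, was listed at 0 in all libraries there. Genes as short as these gain a large FPKM from few fragments.

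Sfpq encodes a splicing factor that binds Neat1 and is needed for paraspeckles. Its FPKM in the series table was 2.97, 1.88 and 2.55 with IgG and 2.54, 1.12 and 5.62 with anti-EZH2. The antibodies overlapped, and the lowest and the highest value were both found with anti-EZH2. The Sfpq ratio was 0.854, 0.595 and 2.20. It was 0.756, 0.718 and 1.15 by the separate tables, where the intervals of the antibodies overlapped in every group. Sfpq is on the plus strand of chromosome 4 (127021324 to 127037013).

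Nono encodes the usual partner of SFPQ, from the X chromosome (plus strand, 101429318 to 101448591). Its FPKM was 1.44, 3.26 and 2.31 with IgG and 3.22, 2.58 and 4.69 with anti-EZH2 in the series table, and 2.69, 15.2 and 4.28 and 5.94, 5.03 and 3.79 in the separate tables. The AngII 4 h IgG library was the highest IgG library in both forms, and by far in the separate tables. Its interval there, 7.09 to 23.4, overlapped that of AngII 24 h IgG (1.67 to 8.02) but not that of Sham IgG (1.37 to 5.97). The intervals of the antibodies overlapped in every group. The Nono ratio of 2.24, 0.790 and 2.02 became 2.21, 0.330 and 0.886 there, so its direction at AngII 24 h depends on the table. Of the 2533 stretches of 30 nt in the longest Nono transcript, 38.8% also occur in transcripts of other genes, 12 genes in all, and reads from these could be split between copies. For Sfpq this share was 1.19%, and for Pspc1 it was 0%. Malat1 had 1.65% of its stretches in other genes and Neat1 0.974%, with a single stretch in up to 853 and 1061 genes.

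Pspc1 encodes a paralog of both that joins paraspeckles without being needed for them. It was the lowest of the members, at 0.672, 0.286 and 1.07 FPKM with IgG and 1.42, 0.749 and 2.73 with anti-EZH2 in the series table. In each group the anti-EZH2 value was higher, by a ratio of 2.11, 2.62 and 2.56, although the antibodies overlapped across groups. The Pspc1 ratio of the separate tables was 1.35, 2.47 and 1.24, and the intervals overlapped in every group, for example 0 to 2.19 with IgG and 0.115 to 2.74 with anti-EZH2 at AngII 4 h. By limma the log2 fold change was 0.10 for Sfpq, 0.44 for Nono and 0.61 for Pspc1, with SEs of 0.33, 0.29 and 0.24 and limma adjusted p of 0.971, 0.88 and 0.88. Pspc1 is on the minus strand of chromosome 14 (56720710 to 56778316). In order of mean FPKM in the series table, where Neat1 was not analysed, Malat1 led, then Gm37376 and Gm20417, whose ranges overlapped. The 3 mRNAs came last, and their ranges overlapped as well.

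The levels of these mRNAs after AngII differed in direction between genes and libraries. In the series table Sfpq was at 0.632 and 0.858 of its Sham level with IgG and at 0.441 and 2.22 with anti-EZH2, for AngII 4 h and AngII 24 h. Nono was at 2.27 and 1.61 with IgG and at 0.800 and 1.46 with anti-EZH2, and Pspc1 at 0.425 and 1.59 and at 0.529 and 1.93. At AngII 4 h both Sfpq and Pspc1 were below Sham with either antibody, in the separate tables as well, where Sfpq was at 0.709 and 0.674 and Pspc1 at 0.410 and 0.750 with IgG and anti-EZH2. Such levels were found for 30.6% of genes in the series table and 15.9% in the separate tables, and the intervals of both genes overlapped those of Sham. The anti-EZH2 value of Sfpq at AngII 24 h turned to 0.955 in the separate tables, and that of Nono turned to 0.638 there and to 0.949 after division by the median ratio.

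Other proteins found in paraspeckles, such as RNA-binding proteins of the hnRNP family, were taken as a list of 27 genes, of which 18 could be tested in the series table. A ratio above 2 was found for 2, 2 and 1 of them in Sham, AngII 4 h and AngII 24 h, and a ratio below 1/2 for 1, 1 and 3. All genes had 12.0%, 6.80% and 14.9% below 1/2, beside the shares above 2 given for Malat1. The median ratio of the list was 0.915, 1.02 and 1.10, near that of all genes. There were 22 tested in the separate tables, with 1 above 2 in each group, 2, 4 and 9 below 1/2, and medians of 0.792, 0.967 and 0.646. The genes below 1/2 made up 19.7%, 11.6% and 33.4% of all genes tested there. In the series table those furthest from a ratio of 1 on average were Rbmx (2.07, 1.56 and 3.39), Tardbp (0.467, 0.874 and 0.552) and Cirbp (1.23, 0.661 and 0.373). By the separate tables Rbmx was at 1.57, 1.68 and 2.62, Tardbp at 0.737, 0.658 and 0.207, and Cirbp at 1.13, 0.398 and 0.188. Rbm7 lay furthest from 1 there (0.759, 0.183 and 0.123) and was named after its values were seen. Of 20 genes of nuclear speckle proteins, 15 were tested, with 3, 1 and 2 above 2 and 1, 1 and 2 below 1/2, and medians of 1.14, 1.04 and 0.751. There were 18 tested in the separate tables, with 2, 2 and 0 above 2, 1, 1 and 7 below 1/2, and medians of 1.05, 0.965 and 0.543. Furthest from 1 in the series table were the kinase gene Clk1 (0.565, 0.517 and 0.726), the RNA export helicase gene Ddx39b (2.15, 0.767 and 2.46) and Srsf7 (0.615, 0.753 and 0.716). By the separate tables Clk1 was at 0.729, 0.412 and 0.555, Ddx39b at 1.44, 0.656 and 1.73, and Srsf7 at 0.506, 0.686 and 0.399. None of the genes tested in these lists had a ratio above 2 in all groups, beside 1.40% of all genes in the series table and 1.07% in the separate tables.

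Cutting of Malat1 and Neat1 at their 3′ ends needs RNase P. Its RNA component Rpph1 was abundant, at 976, 691 and 3080 FPKM with IgG and 1051, 746 and 2091 with anti-EZH2, with a ratio of 1.08, 1.08 and 0.679. By the separate tables this ratio was 0.746, 0.786 and 0.449. Of the 14 genes of this list 3 were tested, with 0 above 2 in every group and 1 below 1/2 in each group. There were also 3 tested in the separate tables, with 1, 1 and 0 above 2 and 0, 1 and 2 below 1/2. The gene above 2 was Pop7 (3.04, 6.58 and 0.638), named after its values were seen. The others tested in the series table were Pop5 (1.09, 0.457 and 0.0776, but 0.642, 0.366 and 0.492 by the separate tables) and Rpp14 (0.487, 0.726 and 1.39), both near 1 FPKM there. Of a list of 16 other lncRNAs 5 were tested. A ratio above 2 was found for 2, 3 and 3 of these, with 0, 1 and 0 below 1/2 and medians of 1.23, 2.06 and 2.03. Of these lncRNAs 6 were tested in the separate tables, with 0, 1 and 1 above 2, 2 below 1/2 in each group, and medians of 0.762, 1.44 and 1.09. Firre lay furthest from 1 there (0.416, 0.394 and 0.218) and was named after its values were seen. Gas5 (916, 20 and 6.25) and Bvht (2.85, 2.06 and 2.03) were above 2 in all groups of the series table, and H19 was at 0.713, 0.00509 and 0.764. These values depend on the table, since the separate tables gave Gas5 ratios of 0.447, 2.81 and 0.958, Bvht ratios of 1.66, 1.65 and 1.22, and H19 ratios of 0.561, 0.319 and 0.389. Tug1, another abundant nuclear lncRNA, had ratios of 0.862, 3.89 and 1.69, but 1.72, 1.71 and 2.99 by the separate tables. The heart-specific Mhrt had 1.23, 1.56 and 2.11, but 0.963, 1.24 and 1.34 by the separate tables. No gene tested from the 4 lists was above 2 in all groups of the separate tables, where 1.07% of all genes were.

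Within 100 kb of Malat1 or Neat1, 21 other genes are annotated, and 5 of them could be tested in the series table. Their median ratio was 1.22, 1.6 and 1.88, lower than that of Malat1 in each group. Of the 5, 0, 2 and 1 were above 2, beside 13.3%, 12.2% and 16.1% of all genes. They included Ehbp1l1 (1.22, 1.6 and 1.82), Fam89b (1.86, 1.10 and 1.91), Dpf2 (0.559, 6.75 and 2.64) and Gm27702. Dpf2, which encodes a subunit of chromatin remodelling complexes, was at 2.58 FPKM on average, and in the separate tables its ratio was 0.732, 2.28 and 1.14. In the series table, no gene tested in this window was above 2 in all groups other than Malat1 and the genes inside it. Over all genes this share was 1.40%, so finding none among 5 does not set the neighbours apart. In the separate tables Gm20417 and Gm37376 were above 2 in all groups, but Malat1 was not. Of the neighbours, 6 were tested in the separate tables, with medians of 0.844, 1.43 and 1.08. Sssca1 (3.95, 0.987 and 0.685) and Cdc42ep2 (0.759, 4.94 and 1.6) were tested only there.

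The genes most like Malat1 were sought by the root mean square difference of centred log2(FPKM + 1) over the 6 libraries, among 721 genes with a mean of at least 10 FPKM in the series table. The nearest were Gm15662 (0.25), Gm15564 (0.42), and Lars2, Nexn and Tceb1 (0.45 each). Gm15662 was at 2981, 1674 and 2960 FPKM with IgG and 6100, 5074 and 7932 with anti-EZH2. Lars2, the gene of the mitochondrial leucyl-tRNA synthetase, was at 4545, 2486 and 3775 and at 6496, 5222 and 8362. It was the 1 gene also among the 5 nearest in the separate tables. For Neat1, among 1627 genes of the separate tables, the 5 nearest included Rbm38 and Ablim1 (0.19 each), Camta1 (0.22) and Gm5514 (0.24). Rbm38 was at 9.75, 16.6 and 20.5 with IgG and at 7.25, 28.5 and 23.1 with anti-EZH2, with both Sham libraries low as for Neat1.

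Malat1 and Neat1 differ in base composition. The Malat1 transcript holds 42.5% G and C, and the long Neat1 transcript 47.3%, compared with a median of 45.1% over 2894 lincRNAs with a transcript of at least 1000 nt. Runs of GGG (overlapping matches, transcript strand) occur 17.8 times per kb in Malat1 and 18.1 times in the long Neat1 transcript, at percentile 78.1 and 79.3 of these lincRNAs, whose median was 13.2. The short Neat1 transcript holds 38.3 per kb, at percentile 99.5. Gm37376 holds 2.21 per kb, and the Gm20417 span holds 7.09 on the plus strand and 21.3 on the minus strand. G-rich runs are a known feature of RNAs that PRC2 binds in vitro. Whether base composition has a part in the ratios was not tested.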

How the data were processed

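The authors aligned the stranded reads to mm10 (GRCm38) by TopHat2. FPKM were deposited. The program behind the FPKM and its strand setting are not stated. The series table covers all 6 libraries, and the separate tables, with interval bounds, share their columns with Cufflinks output. In the latter 787 values below 0.001 FPKM were set to 0. Series entries without a gene name (245, holding 0.319% to 0.935% of each library's FPKM) were dropped. Entries whose gene name occurs more than once were left out in both forms of table.

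Ratios and levels had no pseudocount and no test. The antibodies were compared with limma 3.58.1 in R 4.3.3 (log2(FPKM + 1), group as a block, trend, mean FPKM of at least 1, Benjamini-Hochberg, two-sided). Fragments were estimated from steps in the FPKM of genes with 1 transcript of at least 1000 nt, with a fragment length of 200 nt. Positions, transcripts and shared stretches came from GENCODE M21, in which Gm20417 was not found. Its span came from the separate tables, and the sequence of that span was read from the Malat1 transcript. Python 3.11.15, numpy 2.4.6, pandas 2.3.3 and matplotlib 3.10.9 were used. The limma fit and the fragment steps were tested on simulated data. Members and lists were chosen with earlier results of these data known. Genes named were the members, genes within 100 kb, the 3 listed genes furthest from a ratio of 1 on average in each of 4 lists (series table), genes among the 5 nearest profiles and cell type markers. Single-exon genes compared with Gm37376 had at least 300 nt. Tug1, Mhrt, Firre, Pop7, Rbm7, Gm42733, Gm7418 and the small RNA genes in Malat1 and Neat1 were named after their values were seen. Alternatives covered the table, scaling, pseudocount, filters, trend and leaving out a group.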

Additional observations from a re-analysis of the deposited data

Results flagged for a closer look

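For 3 members the anti-EZH2/IgG ratio lay above 1 in one group and below 1 in another. With 1 library per group and antibody, none of these differences was tested. Sfpq had a ratio of 0.854 in Sham and 0.595 at AngII 4 h, but 2.20 at AngII 24 h in the series table. Nono had 2.24 in Sham and 2.02 at AngII 24 h, but 0.790 at AngII 4 h, where its IgG library was the highest of the 3. Neat1, in the separate tables, had a Sham ratio of 0.959, beside 1.59 after 4 h and 1.11 after 24 h of AngII. Its Sham ratio turned to 1.17 after division by the median ratio. Sfpq and Nono had single-digit FPKM in all libraries of the series table.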

How the results depend on the processing

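Over all alternatives the ratios, levels and shares of the members gave 234 values, of which 62 moved by more than 1.5-fold. A ratio lay on the other side of 1 in 3 of 102 values and a level in 22 of 108. With the separate tables the Malat1 ratio was 1.52, 1.88 and 1.96, and with the middle of the intervals, chosen after seeing the data, it was 1.77 in Sham and 2.25 at AngII 4 h. At AngII 24 h the separate tables and the interval middles gave Gm20417 ratios of 2.71 and 2.51 and Gm37376 ratios of 5.92 and 5.41. The Neat1 ratio at AngII 24 h became 1.70 after division by the median ratio of genes above 1 FPKM in all libraries. The Nono ratio at AngII 24 h turned to 0.886 in the separate tables, the Pspc1 ratio in Sham turned to 0.930 by interval middles, and the Sfpq level at AngII 24 h with anti-EZH2 turned to 0.955 and 0.957 by these settings. Without mitochondrially encoded genes the levels of Nono and Pspc1 at AngII 24 h with IgG turned to 0.909 and 0.898. The Gm20417 level there turned from 0.831 to 1.98 in the separate tables. The cause was not tested.
The Malat1 level at AngII 24 h against Sham became 0.898 with IgG and 0.998 with anti-EZH2 after division by the median ratio, and 0.781 with IgG without mitochondrially encoded genes. Over genes above 1 FPKM in all libraries, the median log2 ratio of the antibodies was -0.01, 0.13 and 0.03 (series table) or -0.28, -0.11 and -0.62 (separate tables).
The Gm20417 share of Malat1 was 5.03% in Sham IgG and 7.04% in AngII 4 h IgG by the separate tables. By interval middles it was 4.33% and 5.47% there, 9.36% in Sham anti-EZH2 and 6.28% in AngII 4 h anti-EZH2. The Gm37376 share was 9.46% in AngII 4 h IgG and 21.3% in AngII 24 h anti-EZH2 by interval middles.
With an FPKM above 1 required in all 6 libraries, 6.78%, 6.51% and 8.84% of genes had a ratio above 2, since genes of low FPKM were left out.
By limma 0 genes passed under any alternative run, with 46 to 401 higher and 14 to 140 lower at an unadjusted p under 0.05. The adjusted p over all settings was 0.485 to 0.905 for Malat1 and Gm37376 and 0.482 to 0.905 for Gm20417. Without each group in turn the log2 fold change was between 1.54 and 1.76 for Malat1, 1.84 and 2.16 for Gm20417, 2.17 and 2.90 for Gm37376, and -0.30 and 0.37 for Sfpq, whose lowest value came without AngII 24 h. limma was not run on the separate tables, which were normalized library by library.
Genes near 1 FPKM, such as Pspc1, Pop5 and Rpp14, rest on few fragments, and depth per gene is an estimate.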
